A study of Mus musculus with 8 samples.

Results

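The genes described here are the 8 genes of the MHC class II presentation pathway that the array names as Ciita, H2-Ab1, H2-Aa, H2-Eb1, Cd74, H2-DMa, H2-DMb1 and Ctss. They were chosen by gene symbol, 8 of 27343 gene names on the array, and are covered by 13 of its 41174 probes. After the filter on dim probes 6 of the 8 were tested, among 15439 genes. H2-Aa and H2-Eb1 did not pass it, and their signals are given without a test. Ciita passed only through IL-13, the treatment in which it is highest, while the other 5 were well above background on all 8 arrays.

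RAW264.7, a macrophage-like cell line of the mouse, was measured on 8 one-colour Agilent arrays hybridised with its total RNA. Cells had received interleukin-13 (IL-13) with all-trans retinoic acid (ATRA), IL-13 alone, ATRA alone, or neither (control), and each treatment had 1 array for each time, 12 h and 24 h. In the labels, cells given both agents are M2 polarization suppressed, IL-13 cells are M2 macrophages, and ATRA and control cells are unpolarized. All cells grew in DMEM with heat-inactivated fetal bovine serum, no dose of either agent is given, and no vehicle is named for the control. Nothing in the labels says whether the 8 arrays came from separate cultures. With 1 array for each treatment and time, the error in the treatment tests is how far treatment differences changed between 12 h and 24 h. The p-values therefore reflect agreement between the times and not a spread among replicate cultures. A real change of an effect with time is counted as error, and part of the spread may be technical.

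MHC class II molecules are surface proteins of antigen-presenting cells that show peptides from engulfed material to CD4 T cells. An alpha and a beta chain assemble in the endoplasmic reticulum with the invariant chain, which fills the groove and steers the complex to endosomes, where proteases trim it and the H2-DM heterodimer exchanges the remaining fragment for an antigen peptide. The coactivator Ciita, which binds no DNA itself, switches on the chains, the invariant chain and H2-DM through a shared X and Y box module in their promoters, and macrophages are known to raise it after interferon-gamma.

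Signals are processed signals divided by each array's 75th percentile and are given on a log2 scale. That percentile was lowest for IL-13 at 12 h (448) and highest for IL-13 at 24 h (739), and 54.1% to 61.4% of probes were well above background. Slide 1 held the 12 h arrays and slide 2 the 24 h arrays. Slide and time therefore cannot be told apart, but each treatment comparison was made within a slide. A gene was called at an adjusted p under 0.05 in limma, with 1 term for each treatment and 1 for time. Errors after ± are standard errors of the fit unless SD is written. With 2 arrays per treatment, overlap or its absence is a description, and the share of all genes without overlap was not counted. Of 10 macrophage markers, 9 or 10 were well above background on every array. In RNA from whole cultures, fewer cells with a transcript and less transcript in each cell cannot be told apart.

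IL-13 alone was set against control to ask what the cytokine did to the pathway. The invariant chain Cd74 rose 3.42-fold and H2-DMa, the alpha chain of the peptide exchange factor, rose 2.25-fold. These were 2 of 6 genes called higher, where 0.68% of all 15439 genes were called higher. None was called lower, where 0.589% of all genes were. The log2 differences of H2-Ab1, Ciita and H2-DMb1 were 2.37, 1.27 and 1.1, and none of these passed the test. The 5 genes measured on all arrays were all higher at both times, as were 34.5% of all genes, although for Ctss the 12 h difference was below 0 under quantile normalization and in the authors' table. The median log2 difference of these 5 was 1.17, against -0.0023 for all genes.

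ATRA alone was set against control, and none of the 6 genes was called in limma, where 1.86% of all genes were called in either direction. At an unadjusted p under 0.05 there were 3 (Cd74, H2-DMa and H2-DMb1), where 15.1% of all genes passed that limit. H2-DMb1, the beta chain of the exchange factor, had the lowest of the 6 log2 differences, -1.66 ± 0.32 (adjusted p = 0.0826). Lower at both times were 3 of the 5 genes measured on all arrays (Cd74, H2-DMa and H2-DMb1), as were 35.9% of all genes. The median of the 5 was -0.43, against -0.02 for all genes.

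IL-13 with ATRA was set against IL-13 to ask what ATRA did in cells that also received the cytokine. None of the 6 genes was called in limma, where 2.64% of all genes were. At an unadjusted p under 0.05 there were 3 (H2-DMa, H2-DMb1 and H2-Ab1), where 19.1% of all genes passed. H2-DMb1 was 1.96 ± 0.32 lower on the log2 scale, next to the threshold (log2 difference -1.96, adjusted p = 0.051). Of the 5 genes measured on all arrays, H2-Ab1 and H2-DMb1 were at least 2-fold lower at both times, as were 1.61% of all genes. With normexp background correction, which adds a constant to every signal and so shrinks differences of dim genes, H2-DMb1 alone was. Cd74 differed by -0.01 and Ctss by 0.04. The median of the 5 was -0.85, against -0.01 for all genes.

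**Figure D1:**
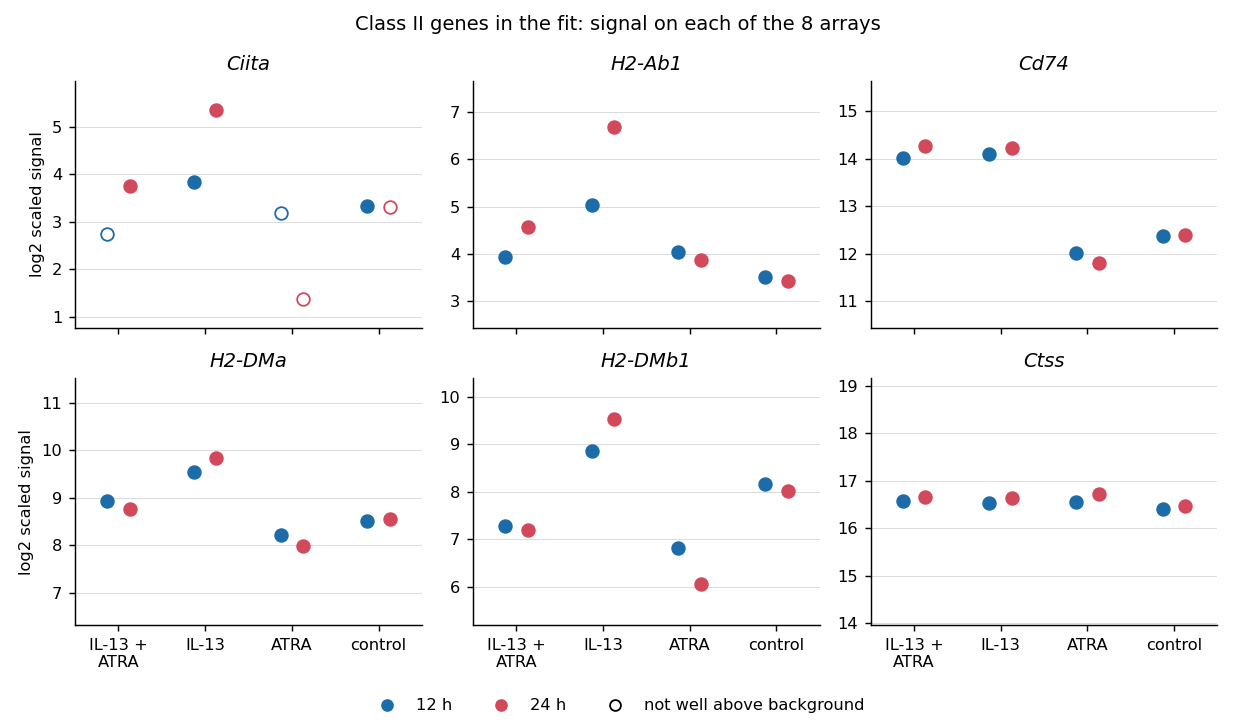
Log2 scaled signal (vertical axis, 1 panel per gene, each spanning the same number of log2 units) of the 6 tested class II genes for IL-13 with ATRA, IL-13, ATRA and control (horizontal axis). Each point is 1 array, blue at 12 h and red at 24 h, open where the probe was not well above background. Cd74 is near 14 on all 4 arrays with IL-13, while H2-DMb1 is higher on the IL-13 arrays than on those with ATRA.

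Ciita, the master coactivator, is annotated at chr16:10480014-10531064 (GRCm38.p6) and is read by 1 probe. Its log2 signal was 2.74 and 3.76 with IL-13 and ATRA, 3.85 and 5.35 with IL-13, 3.19 and 1.39 with ATRA, and 3.33 and 3.32 in control cells, at 12 h and 24 h in each case. The probe was well above background on 4 arrays, both of IL-13, the 24 h array of IL-13 with ATRA and the 12 h array of the control. The 24 h array of IL-13 was the highest of the 8. The 12 h array of IL-13 (3.85) lay only just above the 24 h array of both agents (3.76). At 24 h IL-13 cells had 4.09-fold the control's signal, a ratio to a control reading that was not well above background. With normexp the log2 difference at 24 h was only 0.23. The fitted differences use signals near background and concern a gene that was tested only because it was bright with IL-13, so they are given as descriptions. The fit gave a log2 difference of 1.27 ± 0.78 for IL-13 over control (adjusted p = 0.342), with a 95% interval of -0.67 to 3.22, and 0.32 with normexp. IL-13 with ATRA over IL-13 gave -1.35 ± 0.78 (adjusted p = 0.406), and -0.16 with normexp. With ATRA alone the probe was well above background on neither array, and the bound against control was at least 1.08-fold lower (adjusted p of the fit = 0.624). With normexp the log2 difference of ATRA over control was -0.01 at 12 h and -0.07 at 24 h. With signals near background included, the order of mean signal was IL-13, control, IL-13 with ATRA and ATRA, and the last 3 overlapped their neighbours.

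The chain genes lie together on mouse chromosome 17 in RefSeq (GRCm38.p6), H2-Ab1 at chr17:34263227-34269418, H2-Aa at chr17:34282744-34287823 and H2-Eb1 at chr17:34305867-34316674. H2-Ab1 and H2-Aa encode the beta and alpha chains of I-A, and H2-Eb1 encodes the beta chain of I-E. The array holds 4 probes for H2-Ab1, 2 for H2-Aa and 1 for H2-Eb1. On the IL-13 array at 24 h 6 of these 7 probes were well above background, and on the other 7 arrays only 1 of them was. The sequences of 4 are shown because they are among the probes seen above background on that single array. In the first pair, which covers an overlapping stretch of H2-Ab1, capitals mark the bases that differ.
H2-Ab1 probe A_51_P215242: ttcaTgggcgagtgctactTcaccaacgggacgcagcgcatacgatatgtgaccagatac
H2-Ab1 probe A_52_P570717: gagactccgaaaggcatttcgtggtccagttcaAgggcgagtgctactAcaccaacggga
H2-Aa probe A_51_P119760: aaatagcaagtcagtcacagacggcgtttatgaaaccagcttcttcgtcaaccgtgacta
H2-Eb1 probe A_51_P393226: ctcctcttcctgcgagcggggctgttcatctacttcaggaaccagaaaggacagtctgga
The files place the first at chr17:34401723-34401782 on the plus strand, the third at chr17:34420627-34420686 on the minus strand and the fourth, which spans 462 genome bases, at chr17:34452050-34452511 on the plus strand, all in mm9. They list no position for the second. It shares 31 bases with the first, with 2 mismatches, T5A and T20A, counted from the 5′ end of the first probe. Class II beta genes are known to differ between mouse strains, and mm9 is the genome of C57BL/6J, whereas RAW264.7 cells come from a BALB/c mouse.

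H2-Ab1 was tested through its brightest probe, which was well above background on all 8 arrays. Its log2 signal was 3.94 and 4.57 with IL-13 and ATRA, 5.02 and 6.67 with IL-13, 4.04 and 3.87 with ATRA, and 3.52 and 3.42 in control cells. The IL-13 arrays were the 2 highest and did not overlap the rest, the 24 h one above the 12 h one. IL-13 over control was 2.37 ± 0.46 (adjusted p = 0.0813), the 69th highest of all 15439 log2 differences. It was 1.5 at 12 h and 3.25 at 24 h. With normexp the fitted value was 0.81 (adjusted p = 0.0519). With trend and robust settings it was called (adjusted p = 0.0347). Without the 12 h array of IL-13 the fit gave 3.13, and -2.35 for both agents over IL-13. That refit reads IL-13 from its 24 h array alone, where the difference was larger, so it is no separate support. With all arrays the difference of both agents over IL-13 was -1.59 ± 0.46 (adjusted p = 0.157), and -0.52 with normexp. Means were ordered IL-13, IL-13 with ATRA, ATRA and control, with overlap only between IL-13 with ATRA and ATRA. ATRA over control was 0.49 ± 0.46, and with normexp only 0.04 at 12 h and 0.05 at 24 h.

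The other 3 probes of H2-Ab1 were dimmer and were well above background only on the IL-13 array at 24 h. Their log2 signals there were 3.96, 2.89 and 3.21. On the 24 h array of IL-13 with ATRA they were 2.47, 0.77 and 0.77, and on the 24 h control array 2.24, 0.69 and 0.70. The first of them thus gave at least 1.97-fold the control's signal at 24 h. All 4 probes ran the same way at 24 h, IL-13 above each of the other treatments.

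For H2-Aa 1 of 2 probes had a log2 signal of 3.77 on the IL-13 array at 24 h, against 1.09 with IL-13 and ATRA, 1.02 with ATRA and 0.80 in control cells at that time. The signal was at least 1.72-fold that of the control at 24 h. The 12 h arrays ran from 0.86 to 2.18 for this probe and none was well above background. The other probe of H2-Aa was not well above background on any array. H2-Eb1 had 3.72 on the IL-13 array at 24 h, against 1.87 with IL-13 and ATRA, 1.66 with ATRA and 1.31 in control cells, at least 1.67-fold the control. At 12 h its signal was 3.26 with IL-13 and ATRA, 1.80 with IL-13, 1.22 with ATRA and 3.33 in control cells, none of them well above background, so no order is read from those.

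In all, 5 of the 13 class II probes were well above background on the IL-13 array at 24 h and on no other array, where 1.84% of all 41174 probes were. That array also had the highest 75th percentile of the 8 and the largest share of probes well above background (61.4%). The corresponding share of probes for the other 7 arrays ran from 0.328% to 0.957%. The part of array brightness in the detection of these 5 probes was not tested.

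**Figure D2:**
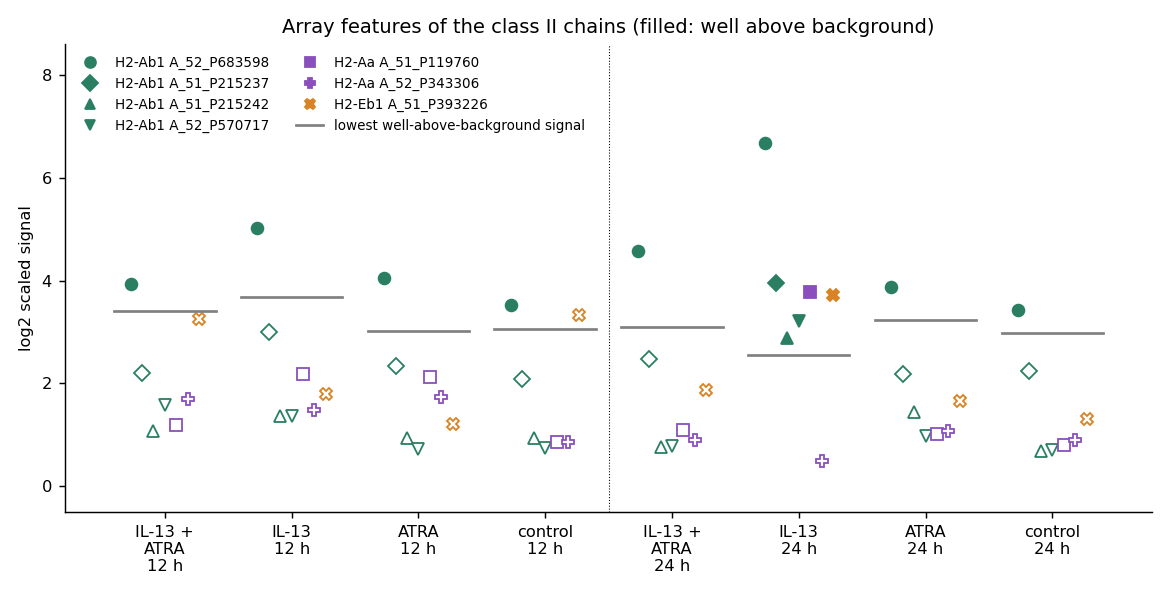
Log2 scaled signal (vertical axis) of the 7 probes of H2-Ab1 (green), H2-Aa (purple) and H2-Eb1 (orange) on each array (horizontal axis, 12 h left and 24 h right of the dotted line). Filled symbols are well above background, and grey bars give each array's lowest signal that was well above background. On the IL-13 array at 24 h 6 symbols are filled, against 1 on every other array.

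Cd74, the invariant chain on chromosome 18, had a log2 signal of 14.01 and 14.27 with IL-13 and ATRA, 14.09 and 14.22 with IL-13, 12.00 and 11.81 with ATRA, and 12.37 and 12.39 in control cells. The 4 arrays with IL-13 were all above the 4 without it, and the ATRA arrays were the 2 lowest. Cd74 rose with IL-13 by 1.77 ± 0.14 over control (adjusted p = 0.0207). It rose by 1.76 ± 0.14 in cells given both agents over control (adjusted p = 0.00623) and by 2.23 ± 0.14 in those cells over ATRA (adjusted p = 0.0154). It was the only one of the 6 called in the last 2 comparisons, in which 3.02% and 0.266% of all genes were called higher. For both agents over IL-13 the difference was -0.01, with a 95% interval of -0.37 to 0.34. ATRA alone gave -0.48 ± 0.14 against control (adjusted p = 0.203). The call for IL-13 over control was lost without either control array (adjusted p = 0.14 with the 12 h one left out, 0.119 with the other) and without the 24 h array of IL-13 (0.0615). The call over ATRA was lost in refits without either array of IL-13 with ATRA, ATRA or control, in each of these 6 at an adjusted p from 0.0621 to 0.086. That for both agents over control was lost without the 24 h control array (0.0595).

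H2-DMa (chr17:34119693-34139101, GRCm38.p6) had a log2 signal of 8.94 and 8.77 with IL-13 and ATRA, 9.55 and 9.85 with IL-13, 8.21 and 7.99 with ATRA, and 8.51 and 8.54 in control cells. The 4 treatments did not overlap, in the order IL-13, IL-13 with ATRA, control and ATRA. H2-DMa rose with IL-13 by 1.17 ± 0.16 (adjusted p = 0.0462), a call lost in 7 of 8 refits without 1 array, at an adjusted p from 0.084 to 0.235, and kept only without the 12 h array of IL-13. IL-13 with ATRA over IL-13 gave -0.85 ± 0.16 (adjusted p = 0.066), with a 95% interval of -1.24 to -0.45, -0.61 at 12 h and -1.08 at 24 h. Without the 12 h array of IL-13, which leaves its 24 h array alone, this value was -1.05. ATRA over control gave -0.43 ± 0.16 (adjusted p = 0.295).

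H2-DMb1 (chr17:34153191-34160229) had a log2 signal of 7.27 and 7.19 with IL-13 and ATRA, 8.85 and 9.53 with IL-13, 6.81 and 6.06 with ATRA, and 8.16 and 8.02 in control cells. No treatment overlapped another. Here the control lay above IL-13 with ATRA, unlike the order seen for H2-DMa. IL-13 over control was 1.1 ± 0.32 (adjusted p = 0.145), and both agents over control was -0.86 ± 0.32 (adjusted p = 0.159). The 2 arms with ATRA were the 2 lowest. For both agents over IL-13 the value was -2.46 without the 12 h array of IL-13, which leaves its 24 h array alone. This difference was called under 6 of 10 alternative settings of the processing, and that of ATRA over control under 5 of 10.

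A second probe of H2-DMb1 gave the same directions in these comparisons. Its mean log2 differences were 1.12 for IL-13 over control, -1.53 for ATRA over control (detected on 1 of 2 ATRA arrays) and -1.97 for IL-13 with ATRA over IL-13. Whether H2-DMb2, a near-identical neighbouring gene, contributes to either probe was not tested. H2-DMb2 itself was well above background on the arrays of IL-13 and control only. It was at least 2.54-fold lower with IL-13 and ATRA than with IL-13 (adjusted p of the fit = 0.117).

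Ctss, the endosomal protease cathepsin S that trims the invariant chain, lies at chr3:95526786-95556405 (GRCm38.p6). Its log2 signal was 16.58 and 16.66 with IL-13 and ATRA, 16.53 and 16.64 with IL-13, 16.56 and 16.73 with ATRA, and 16.40 and 16.48 in control cells. The 8 arrays thus lay within a narrow range, and the 3 treated groups overlapped each other. No comparison of Ctss passed the test. IL-13 over control was 0.15, with a 95% interval of -0.11 to 0.40, and ATRA over control was 0.21, with an interval of -0.05 to 0.46. IL-13 with ATRA over IL-13 was 0.04, with an interval of -0.22 to 0.29, whose sign turned with normexp correction (-0.04).

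**Figure D3:**
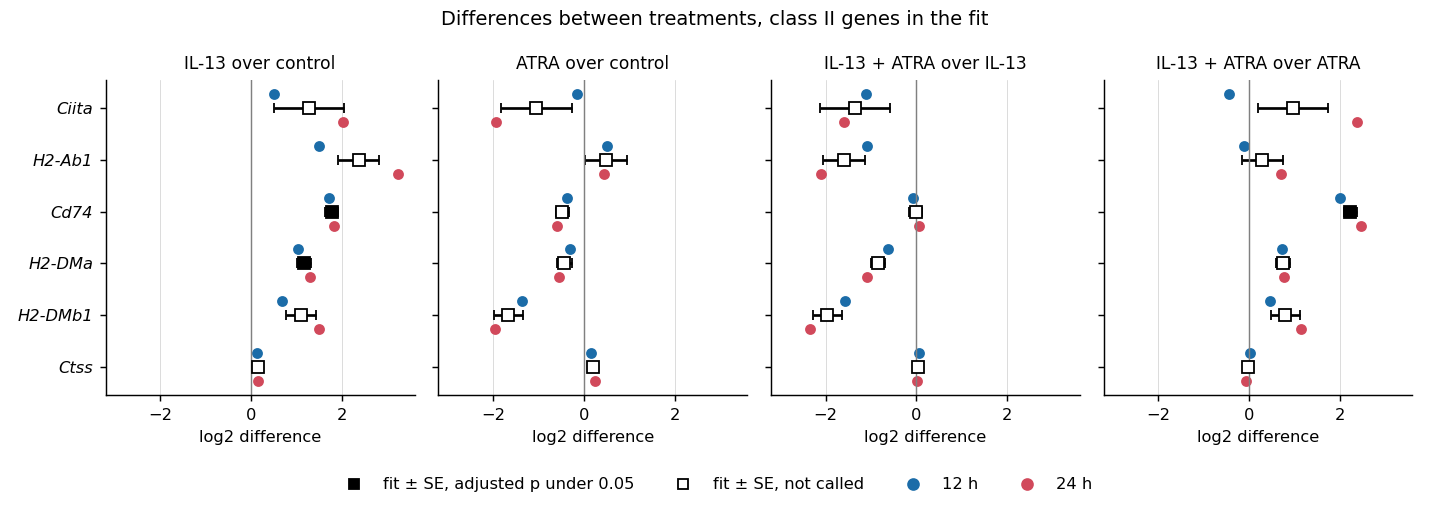
Log2 differences (horizontal axis) of the 6 tested class II genes (rows) in 4 comparisons (panels). Squares with bars are the fit ± SE, filled where the adjusted p was under 0.05, blue points are the 12 h and red points the 24 h difference between 2 arrays. Filled squares are Cd74 and H2-DMa for IL-13 over control and Cd74 for both agents over ATRA.

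The interaction of IL-13 and ATRA asked whether the combined treatment departed from the sum of the 2 single log2 differences. In limma 0 of the 6 genes were called, where 0.0194% of all genes were, and 1 had an unadjusted p under 0.05, as 3.65% of all genes did. That gene was H2-Ab1, at -2.08 ± 0.64 (adjusted p = 1.0), the 46th lowest of 15439, and -0.56 with normexp. For Cd74 the value was 0.46 ± 0.20 and for H2-DMb1 -0.30 ± 0.46. The intervals of Cd74 and H2-DMb1 for IL-13 with ATRA over IL-13, -0.37 to 0.34 and -2.77 to -1.14, did not meet, but a difference between these genes was not itself tested.

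Whether the effect of IL-13 differed between 24 h and 12 h was asked in a model with all pairwise interactions. That model has 1 residual degree of freedom and averages the IL-13 effect over cells without and with ATRA. None of the 6 genes was called in limma, and 0.0% of all genes were. Of the 5 genes measured on all arrays, H2-Ab1 (1.28 ± 0.29) and H2-DMb1 (0.75 ± 0.15) had an unadjusted p under 0.05. So did 9.94% of all genes. Both were larger at 24 h (adjusted p = 0.465 for each). Ciita, tested only because it was bright with IL-13, had 2.17 ± 0.38, a description that uses signals near background. With normexp the time effect of IL-13 was -0.15 for Ciita and 0.16 for H2-Ab1. For the effect of ATRA, averaged over cells without and with IL-13, 0 genes were called, where 0.0% of all genes were. H2-DMb1 alone had an unadjusted p under 0.05 (-0.68 ± 0.15, adjusted p = 0.503), where 9.57% of all genes had one.

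Of the RefSeq promoter windows, 250 bases before to 50 after a gene's start in GRCm38.p6, 5 of the 8 genes had an entry (H2-DMa, H2-DMb1, H2-Aa, H2-Eb1 and Ctss), with 2 entries for H2-DMa. Cd74, H2-Ab1 and Ciita had none. Letters typical of the X box (GNAAC, then 3 bases of any kind, then TGANG) were searched on both strands. Those of the Y box (ATTGG) were searched likewise, and both were chosen after these promoters had been read. The X letters were in 0.88% and the Y letters in 37.4% of 32851 windows. Both on the same strand, the Y letters 10 to 35 bases after the X letters, were in 17 windows (0.0517%). H2-DMb1 and H2-Eb1 were among the 17, as was H2-Ob, the beta chain of the H2-DM inhibitor. The stretches of H2-DMb1 and H2-Eb1 are shown because they hold both sets of letters, which are in capitals. Since the letters were chosen with these promoters known, their match is no test.
H2-DMb1 promoter, chr17:34153077-34153154, plus strand: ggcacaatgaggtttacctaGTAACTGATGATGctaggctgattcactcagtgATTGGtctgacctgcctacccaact
H2-Eb1 promoter, chr17:34305756-34305832, plus strand: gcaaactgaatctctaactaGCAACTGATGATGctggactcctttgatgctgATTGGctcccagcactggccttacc
The X letters began 94 bases before the start in H2-DMb1 and 91 in H2-Eb1, with 20 and 19 bases between X and Y. The windows of H2-Aa and of 1 entry of H2-DMa held the Y letters alone, and the other H2-DMa window held neither. In Ctss neither was found. Its window held an interferon-type element (GAAA, 2 bases of any kind, GAAA), as did 3.44% of all windows, beginning 21 bases before the start and shown in capitals.
Ctss promoter, chr3:95526745-95526794, plus strand: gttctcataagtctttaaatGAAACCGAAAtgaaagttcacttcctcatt
A match is a description of letters and not evidence of a bound site, and a miss is not evidence that a box is absent.

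Genes around the pathway were read from lists by role. Of all 15439 genes, 1.27% were called in either direction for IL-13 over control and 1.86% for ATRA over control. The share was 2.64% for both agents over IL-13, 0.363% for both over ATRA and 8.5% for both over control. Single calls within a list are to be read beside these shares. Of 11 transcription factors of the class II promoters and their partners, all were tested. For IL-13 over control 1 rose (Irf4, 3.39 ± 0.15, adjusted p = 0.00634, a factor of lymphoid and alternatively activated myeloid cells), and the median was 0.11, against -0.0023 for all genes. Irf4 also rose by 2.79 with both agents over control and by 2.04 with both over ATRA. Irf8, a factor of the macrophage lineage, rose by 0.90 ± 0.14 with IL-13 and ATRA over IL-13 (adjusted p = 0.0444), where the list's median was -0.07. The cyclic AMP factor Crem rose by 0.69 with both agents over control. Rfx5, which binds the X box, was called in none of these comparisons, with log2 signals of 6.09 and 6.21 with IL-13 and ATRA, 6.11 and 6.33 with IL-13, 6.41 and 6.39 with ATRA, and 6.56 and 6.44 in control cells. For ATRA over control none of the 11 was called in limma, and 3 (Irf8, Irf4 and Crem) had an unadjusted p under 0.05, as did 15.1% of all genes.

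Of 8 genes of interferon-gamma signalling Socs1, a feedback inhibitor of the JAK kinases, was the only one called. It rose by 2.61 ± 0.24 with IL-13 over control (adjusted p = 0.0229), by 2.54 with both agents over control and by 2.88 with both over ATRA. The list's median for IL-13 over control was -0.07.

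Of 12 genes of endolysosomal processing Cst7, an inhibitor of cysteine cathepsins, rose by 2.11 ± 0.14 with IL-13 over control (adjusted p = 0.0174), by 1.87 with both agents over control and by 2.64 with both over ATRA. The aspartic protease Ctsd rose by 0.84 ± 0.15 with both agents over control (adjusted p = 0.0348). No other gene of this list was called in any of the 5 treatment comparisons, and its medians ran from -0.09 to 0.18.

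The 4 genes of class II surface turnover had calls in both directions. Cd83, a surface protein known to stabilise class II molecules on dendritic cells, rose by 1.79 ± 0.11 with both agents over control, by 0.96 with IL-13 over control, by 1.57 with ATRA over control and by 0.83 with both over IL-13. Il10, a cytokine known to lower surface class II, fell by 2.64 ± 0.22 on the log2 scale with IL-13 and ATRA over IL-13 (adjusted p = 0.0152) and by 1.09 with both agents over control (adjusted p = 0.0466). With ATRA alone Il10 was 2.92-fold lower than in control cells by the measured signals (adjusted p = 0.0447), but neither ATRA array was well above background. Marchf1, a ligase that marks class II for degradation, was well above background on the IL-13 and control arrays only. Against IL-13 it was at least 3.11-fold lower when ATRA was added (adjusted p of the fit = 0.0815). It was at least 2.08-fold lower with ATRA than in control cells (adjusted p of the fit = 0.167), and neither passed the test. Marchf8, a related ligase, was not called.

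**Figure D4:**
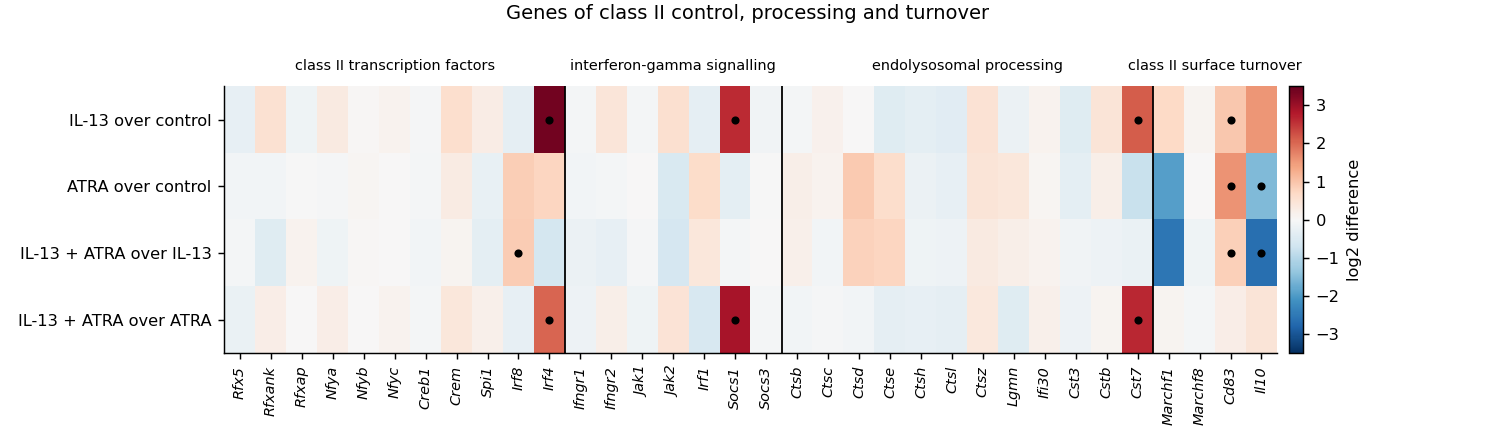
Log2 differences (colour) of 34 genes in 4 lists around the class II pathway (columns) in 4 comparisons (rows). Black dots mark an adjusted p under 0.05, and Marchf1 and Il10 were not well above background with ATRA, so their values there are no bounds. Irf4, Socs1 and Cst7 are dotted in both rows that add IL-13, and Cd83 in 3 rows.

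Of 5 further class II genes, 2 were tested (H2-Oa and H2-DMb2) and 0 were called in limma in any treatment comparison, while for IL-13 over control both had an unadjusted p under 0.05 (-1.11 for H2-Oa and 0.96 for H2-DMb2), as did 23.9% of all genes. H2-Ob, H2-Eb2 and H2-Ea were not well above background on any array. H2-Oa, the alpha chain of the H2-DM inhibitor, had log2 signals of 4.0 and 4.51 with IL-13 and ATRA, 3.62 and 4.41 with IL-13, 4.62 and 4.64 with ATRA, and 5.24 and 5.01 in control cells, so the control arrays were the 2 highest.

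Markers of other cell types, among them cells that carry class II, were read beside these results. Of 9 dendritic cell markers 5 were tested, and Itgax (4.21 ± 0.31) and Batf3 (4.04 ± 0.15) rose with IL-13 over control. Flt3 (0.27), Zbtb46 (0.10) and Xcr1 (-0.05) were not called there. Ccr7, Clec9a, Cd209a and Siglech were not well above background on any array. Batf3 also rose with ATRA over control (0.99, adjusted p = 0.0487), where Itgax had -1.36 (adjusted p = 0.117). When ATRA was added to IL-13, the log2 differences were 0.79 for Batf3 (adjusted p = 0.0689) and -1.52 for Itgax (adjusted p = 0.082). On the arrays with IL-13, Itgax and Batf3 were the brightest genes of the list, and most of its summed signal there is theirs. The summed scaled signal of the list was 1328 and 1146 with IL-13 and ATRA, 1995 and 2282 with IL-13, 159 and 157 with ATRA, and 185 and 218 in control cells. Of 8 B cell markers 3 were tested, 0 were called in limma and 0 had an unadjusted p under 0.05, and Pax5, Cd22 and Blk were not well above background on any array. The B cell sum ran from 66.8 to 154 with both agents, 62.2 to 81.2 with IL-13, 65.8 to 133 with ATRA and 63.6 to 66.2 in control cells. The sums of 154 and 133 each rest mostly on 1 gene on 1 array. These were Cd79b (log2 signal 6.44, both agents at 24 h) and Ms4a1 (6.10, ATRA at 12 h), neither of them tested. T cell markers had 3 of 6 tested and 0 called in limma. Cd5 alone had an unadjusted p under 0.05 (-0.63 for ATRA over control and -0.52 for both agents over IL-13). In those comparisons 15.1% and 19.1% of all genes had one. Of 6 fibroblast markers 2 were tested, and Pdgfrb fell by 1.43 with both agents over control. Of the macrophage markers Adgre1 rose by 1.06 with IL-13 and by 0.83 with both agents over control, and Ptprc fell by 0.70 with both agents over control. For both agents over control 3.02% of all genes were called higher and 5.48% lower. The part of these markers in the class II values was not tested.

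Over the 8 arrays the pattern of the tested genes was set against all others by Pearson's r of log2 signals, as a description across arrays that share treatments and slides. Among themselves, r was 0.87 for H2-DMa with H2-DMb1 and for H2-DMb1 with Ciita, 0.84 for Cd74 with H2-DMa, 0.83 for H2-DMa with H2-Ab1 and 0.82 for H2-DMa with Ciita, whose signal was not well above background on 4 arrays. Ctss had r from -0.40 to 0.38 with the other 5. The 3 genes most like Cd74 were Dapp1 (r = 0.988), Ercc3 and the transcript TC1660463, and those most like H2-DMa were Il1rap (r = 0.993), Txndc12 and Golga7. Spata6 (r = 0.992), Clmp and Aamdc were most like H2-DMb1, and Tbc1d20 (r = 0.987), Zbtb5 and Fen1 most like H2-Ab1. Usp15 (r = 0.954), Fanci and Tm2d2 were most like Ciita, and Arl5c (r = 0.954), Smim4 and Crlf3 most like Ctss. Of these 18, only TC1660463 was called for IL-13 over control (5.01, adjusted p = 0.0174), and Il1rap had a log2 difference of 1.02 there (adjusted p = 0.0693).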

How the data were processed

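Per the file headers, the arrays were of design 014868 and Agilent's Feature Extraction (10.7.1.1) had already taken off the background when the authors deposited them. The deposited processed signals are in the unit intensity, with no normalization between arrays. Feature Extraction's other flags per spot were read per the file headers. A second deposited table holds the authors' values on a log2 scale by an unstated method and served only as an alternative.

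Control, non-uniform and outlying spots were removed, repeated spots averaged, and each array's 75th percentile was subtracted on the log2 scale and the mean percentile over arrays added back. A probe was kept if 1 or more treatments had it well above background at both times (24016 probes), and each gene took its brightest probe (15439 genes). limma 3.58.1 (R 4.3.3) fitted treatment and time (3 residual degrees of freedom), with two-sided Benjamini-Hochberg adjustment over all genes. Time served as the block, since no replicate numbers are in the labels. The number of arrays limits the precision. The fit was tested on simulated data. For a treatment with neither array well above background, its limit was the mean over arrays of the higher of the probe's own signal and the array's lowest signal well above background. For the 24 h arrays alone, the limit was that of the single array. Where the probe's own signal was the higher, the value is a ratio to a signal near background and not a strict bound. Adjusted p-values beside such values are from the fit to the measured signals. Named genes were all 8 members, up to 8 called list genes per comparison and the 3 most correlated genes per tested member. Members and lists were chosen with earlier results of these data known. Probe names in the files can be old. Some listed genes are not reported here by name.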

Additional observations from a re-analysis of the deposited data

Results flagged for a closer look

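Outside the fit, 5 probes of class II chains had a signal well above background on the IL-13 array at 24 h, and on no control array or any other. These were the H2-Ab1 probes A_51_P215237 (log2 signal 3.96), A_51_P215242 (2.89) and A_52_P570717 (3.21), the H2-Aa probe A_51_P119760 (3.77) and the H2-Eb1 probe A_51_P393226 (3.72). On the 24 h control array the same probes had 2.24, 0.69, 0.70, 0.80 and 1.31. The filter, which asked for both arrays of a treatment, left them out, and with 1 array there is no replicate of the signal. Groups of 2 arrays are too small to look for outlying samples.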

How the results depend on the processing

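Of the 6 tested class II genes, the number called moved with the processing. For IL-13 over control it was 2, against 0 with no filter on dim probes and in fits of just the 4 arrays compared, 1 with the mean of all probes that pass and 3 with trend and robust settings, and it was 0 to 3 over refits without 1 array. For ATRA over control it was 0, against 1 with normexp correction, with a filter asking for all 8 arrays, with time as a random block, with just the arrays compared and with trend and robust settings. For IL-13 with ATRA over IL-13 it was 0, against 2 with the filter on all 8 arrays, without a time term (no replicate block), with time as a random block and with trend and robust settings, 1 with normexp correction and with the mean of probes, and 0 to 3 without 1 array. For both agents over ATRA it was 1, against 0 with no filter and with only the arrays compared, and 0 to 1 without 1 array. For both agents over control it was 1, against 0 with no filter, and 0 to 1 without 1 array. No setting called a member for the interaction or for either time effect. No paired analysis beyond the time term was possible because the labels give no replicate numbers.

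Signs turned for small or dim values only, none of them called. Ciita for both agents over control was 0.16 with normexp, 0.16 with quantile normalization and 0.17 in the authors' table, and -0.64 to 0.48 without 1 array. The IL-13 time effect of Ciita was -0.15 with normexp. Ctss was -0.0399 for IL-13 with ATRA over IL-13 with normexp. Its IL-13 time effect was 0.46 with quantile normalization and in the authors' table. Its ATRA time effect was -0.00045 with normexp, -0.099 with quantile normalization and -0.11 in that table. Without 1 array, Cd74 for IL-13 with ATRA over IL-13 ran from -0.15 to 0.12, Ciita for ATRA over control from -2.36 to 0.28 and for both agents over ATRA from -0.35 to 2.28. H2-Ab1 ran from -0.15 to 0.74 and Ctss from -0.0643 to 0.0187 for both agents over ATRA. For the interaction H2-DMb1 ran from -0.80 to 0.20 and Ciita from -1.63 to 1.01. With normexp, values of H2-Ab1 and Ciita moved by over 1.5 times in several comparisons, of which not all are printed. The causes were not tested. Refits without 1 array leave a treatment with 1 array, taken to vary like the others. Low signal over background limits Ciita, H2-Aa, H2-Eb1 and 3 probes of H2-Ab1.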
